A study of Homo sapiens with 8 samples.

Results

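Bidirectional coding promoters are stretches of DNA from which 2 protein-coding genes are transcribed in opposite directions, and FLI1 occupancy at them was read from ChIP-Seq peak lists. Members were pairs of protein-coding genes of GENCODE release 44 on GRCh37, on opposite strands and facing apart, whose 5′-most transcription start sites (TSS) lie at most 1000 bp apart. A region is the stretch between both TSS plus 500 bp on each side. The rule gave 883 pairs, which collapse to 880 regions and hold 1703 of 20163 coding genes. Pairs with a read-through gene number 79, and with each group of overlapping regions counted once the 880 regions come to 821. The median distance between the TSS was 131 bp (quartiles 69 and 246 bp, range 1 to 995 bp). The comparison set was 18413 lone promoters, those of coding genes in no such pair, each with a window of 1132 bp, the median length of the bidirectional regions, from 631 bp upstream to 500 bp downstream of the TSS. Both classes together hold 19293 promoter regions.

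FLI1 was immunoprecipitated with a rabbit polyclonal antibody from OCI-Ly1 (OCILy1 in the labels) and VAL, established lymphoma cell lines of germinal center B-cell (GCB) origin, untreated as far as the labels say, with 2 replicates per line and input DNA beside them. Each line stands for 1 tumor, and the labels do not say whether replicates came from separate cultures. A promoter region is called bound in a library if it holds the summit of a peak whose -log10 q, the false discovery value of the peak caller, is at least 3. OCI-Ly1 replicate 2 had 5354 such passing peaks, VAL replicate 1 had 973 and VAL replicate 2 had 6474. Of the 37 intervals listed for OCI-Ly1 replicate 1, 33 are longer than 1 Mb, and no bidirectional region holds the summit of its 1 passing interval, so it was not used and OCI-Ly1 is represented by 1 library. In what follows OCI-Ly1 alone means its replicate 2, and VAL-1 and VAL-2 mean the replicates of VAL. The input DNA was not analysed here.

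FLI1 belongs to the ETS family of transcription factors, which share a winged helix-turn-helix domain that contacts a GGAA core and which act in blood cell and endothelial development. ETS family sites are common in promoters of CpG islands without a TATA box, and many such promoters start transcription in both directions. Pairs of divergent coding genes often encode proteins of basic cell functions such as DNA repair, translation and mitochondrial respiration. The motif sought here, called the ETS motif, is CCGGAAG or CCGGAAA on either strand, the GGAA core with the preceding bases that ETS factors prefer.

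The sequences between the TSS of 6 pairs are given because their regions are among the 10 with the highest -log10 q in all 3 libraries, ranked by the lowest of the 3 values, and have an ETS motif in this stretch. All are written on the plus strand of GRCh37, from the first base after the TSS of the minus-strand gene, named first, to the last base before the TSS of the plus-strand gene. Capitals mark the ETS motif.
UFD1/CDC45, chr22:19466726-19466979: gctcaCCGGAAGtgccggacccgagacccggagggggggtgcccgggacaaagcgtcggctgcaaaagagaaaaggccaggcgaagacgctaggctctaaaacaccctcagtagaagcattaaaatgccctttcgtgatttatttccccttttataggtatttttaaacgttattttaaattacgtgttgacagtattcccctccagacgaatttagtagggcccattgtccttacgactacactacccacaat
SIRT6/ANKRD24, chr19:4182564-4182685: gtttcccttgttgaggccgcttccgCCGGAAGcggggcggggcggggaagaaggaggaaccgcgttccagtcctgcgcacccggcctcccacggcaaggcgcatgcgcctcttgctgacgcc
SLX4/DNASE1, chr16:3661608-3661728: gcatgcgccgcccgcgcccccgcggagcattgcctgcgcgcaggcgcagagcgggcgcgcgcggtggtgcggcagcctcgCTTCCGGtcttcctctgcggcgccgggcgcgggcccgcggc
AC110771.1/CYP4V2, chr4:187112627-187112720: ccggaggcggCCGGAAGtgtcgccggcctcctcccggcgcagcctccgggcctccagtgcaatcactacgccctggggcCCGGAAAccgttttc
ENSG00000286112/LRRC8A, chr9:131644211-131644411: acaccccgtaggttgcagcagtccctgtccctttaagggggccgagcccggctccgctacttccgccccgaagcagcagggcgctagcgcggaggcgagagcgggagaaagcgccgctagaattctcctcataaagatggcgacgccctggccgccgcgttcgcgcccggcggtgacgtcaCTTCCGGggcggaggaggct
NOP10/NUTM1, chr15:34635382-34635515: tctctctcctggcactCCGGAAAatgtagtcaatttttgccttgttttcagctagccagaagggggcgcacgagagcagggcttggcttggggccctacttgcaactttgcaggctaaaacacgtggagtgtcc
At UFD1/CDC45 the motif stands next to the UFD1 end, and the summits of OCI-Ly1, VAL-1 and VAL-2 lay 20, 21 and 10 bp from its middle. At SIRT6/ANKRD24 these distances were 16, 4 and 20 bp. The stretch of AC110771.1/CYP4V2 is 94 bp long and holds 2 motifs, and the nearer one lay 18 to 19 bp from the summit in each library. At SLX4/DNASE1 and ENSG00000286112/LRRC8A the motif, read on the minus strand, stands in the part nearer to the plus-strand gene. For LRRC8A the summit of OCI-Ly1 was 1 bp from the motif, and those of VAL-1 and VAL-2 were 51 and 56 bp away.

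The region of UFD1, a ubiquitin recognition factor of protein degradation at the endoplasmic reticulum, and CDC45, a component of the replicative DNA helicase, ranked first. Its -log10 q was 65.6 in OCI-Ly1, 42.1 in VAL-1 and 68.8 in VAL-2, from 41, 43 and 49 reads at the summit as worked out from the fold enrichment and p of each peak. Library depth is unknown, so values of different libraries are set side by side and are not amounts to compare. SIRT6, a chromatin deacetylase, shares its promoter with ANKRD24, and the values were 39.2, 32.8 and 58.2 in the same order of libraries. XNDC1N/RNF121, where RNF121 encodes a ubiquitin ligase, had the highest value of any bidirectional region in both longer lists, those of OCI-Ly1 and VAL-2, with 83.0 in OCI-Ly1, 31.6 in VAL-1 and 109.7 in VAL-2. Its read-through form XNDC1N-ZNF705EP-ALG1L9P/RNF121 covers the same stretch and takes another rank, so the 10 regions are 9 distinct promoters. VAL-1 gave the lowest value of the 3 at 8 of these 10 regions.

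DCLRE1A and SLX4 encode a nuclease and a nuclease scaffold that act in the repair of DNA cross-links, and RTEL1 a helicase that protects telomeres. DCLRE1A/NHLRC2 reached 68.7, 17.4 and 60.8 in OCI-Ly1, VAL-1 and VAL-2. SLX4/DNASE1 reached 19.7, 17.7 and 17.3. STMN3/RTEL1 reached 35.9, 13.1 and 17.5. At SLX4/DNASE1 the strongest summit lay between the TSS in all 3 libraries, but it need not lie there. At DCLRE1A/NHLRC2 the 3 summits lay 193 to 204 bp inside the DCLRE1A side with no ETS motif and no GGAA within 50 bp, and at STMN3/RTEL1 they lay 450 to 479 bp inside RTEL1 with an ETS motif 11 to 40 bp away. At XNDC1N/RNF121 the summits lay within 16 bp of the RNF121 TSS with a GGAA but no ETS motif within 50 bp.

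The values of the other 3 promoters of this group are given in the order OCI-Ly1, VAL-1 and VAL-2. AC110771.1/CYP4V2, where CYP4V2 is a fatty acid hydroxylase of the cytochrome P450 family, had 32.9, 16.4 and 45.6. ENSG00000286112/LRRC8A, where LRRC8A is a subunit of the volume-regulated anion channel, had 33.3, 11.7 and 32.4. NOP10/NUTM1, where NOP10 belongs to the box H/ACA ribonucleoproteins that modify RNA and to telomerase, had 13.8, 12.5 and 11.0. As the plot of these regions shows, the order of the libraries differed from pair to pair.

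**Figure D1:**
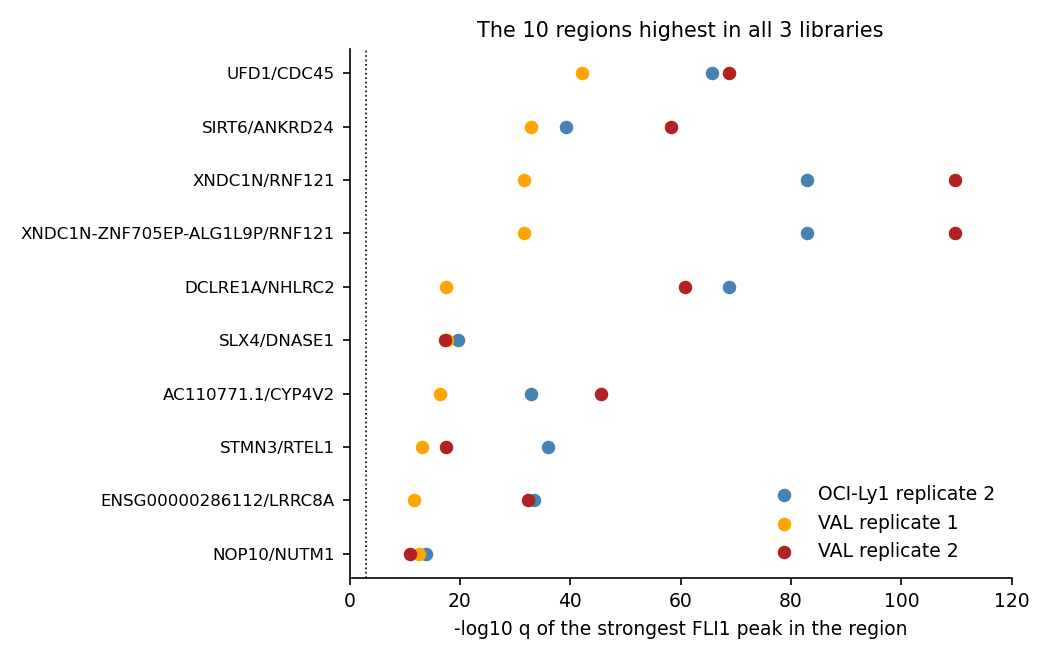
The horizontal axis gives the -log10 q of the strongest FLI1 peak in each of the 10 bidirectional regions with the highest lowest value over 3 libraries, with 1 point per library and a dotted line at the threshold of 3. The values of UFD1/CDC45 run from 42.1 to 68.8, and those of NOP10/NUTM1 from 11.0 to 13.8.

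FLI1 occupied a larger share of bidirectional regions than of lone promoters in each of the 3 libraries. In OCI-Ly1, 263 of 880 bidirectional regions were bound (29.9%, Wilson 95% interval 27.0 to 33.0%), against 2003 of 18413 lone promoters (10.9%) and 11.7% of all coding promoter regions. The difference was 19.0 percentage points (Newcombe 95% interval 16.0 to 22.1). In VAL-1, the list with the fewest passing peaks, 48 regions were bound (5.45%, 4.14 to 7.16%), against 338 lone promoters (1.84%) and 2.001% of all, a difference of 3.62 points (2.29 to 5.33). In VAL-2, 271 regions were bound (30.8%, 27.8 to 33.9%), against 2112 lone promoters (11.5%) and 12.4% of all, a difference of 19.3 points (16.3 to 22.5). The ratio of the shares was 2.75, 2.97 and 2.68. These intervals cover counting error only, and neighboring regions are not independent replicates. Over the libraries the mean difference was 14.0 ± 8.98 points (SD, n = 3) and was above 0 in 3 of 3, where the two-sided exact sign-flip permutation test gave p = 0.25, the smallest value that 3 libraries allow.

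At least 1 library bound 355 bidirectional regions (40.3%), against 2815 lone promoters (15.3%) and 16.4% of all coding promoter regions. The 355 regions carry the starts of 680 coding genes, and they come to 325 with overlapping regions counted once. All 3 libraries bound 42 bidirectional regions (4.77%), against 298 lone promoters (1.62%) and 1.76% of all. Without VAL-1, 182 of 880 bidirectional regions were bound in both other libraries, against 1309 of 18413 lone promoters. Of the passing peaks, 242 of 5354 in OCI-Ly1 (4.52%), 43 of 973 in VAL-1 (4.42%) and 250 of 6474 in VAL-2 (3.86%) had their summit in a bidirectional region. Among the 500 peaks with the highest -log10 q these were 42, 27 and 33. Coding promoter regions of either class held 38.9, 35.9 and 34.1% of the passing peaks, and 880 of these 19293 regions are bidirectional.

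Other kinds of promoter with a start on the opposite strand lay between both extremes. Overlapping heads are genes whose opposite-strand neighbor starts inside them within 1000 bp, so that the first parts of both genes overlap. Of 974 promoters that overlap the head of another coding gene, 24.3% were bound in OCI-Ly1, 4.52% in VAL-1 and 25.4% in VAL-2. The bidirectional share was above these by 5.55 points (1.51 to 9.60), 0.94 points (-1.05 to 2.98) and 5.44 points (1.34 to 9.52), so in VAL-1 the interval of the difference includes 0. Of 1616 coding promoters with a divergent non-coding gene, 21.0, 3.40 and 19.3% were bound. Of 1049 that overlap the head of a non-coding gene, 16.0, 3.62 and 18.6% were bound. The 14774 promoters without a TSS on the other strand within 1000 bp had the lowest shares of the 5 classes, with 8.51, 1.36 and 9.19%.

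**Figure D2:**
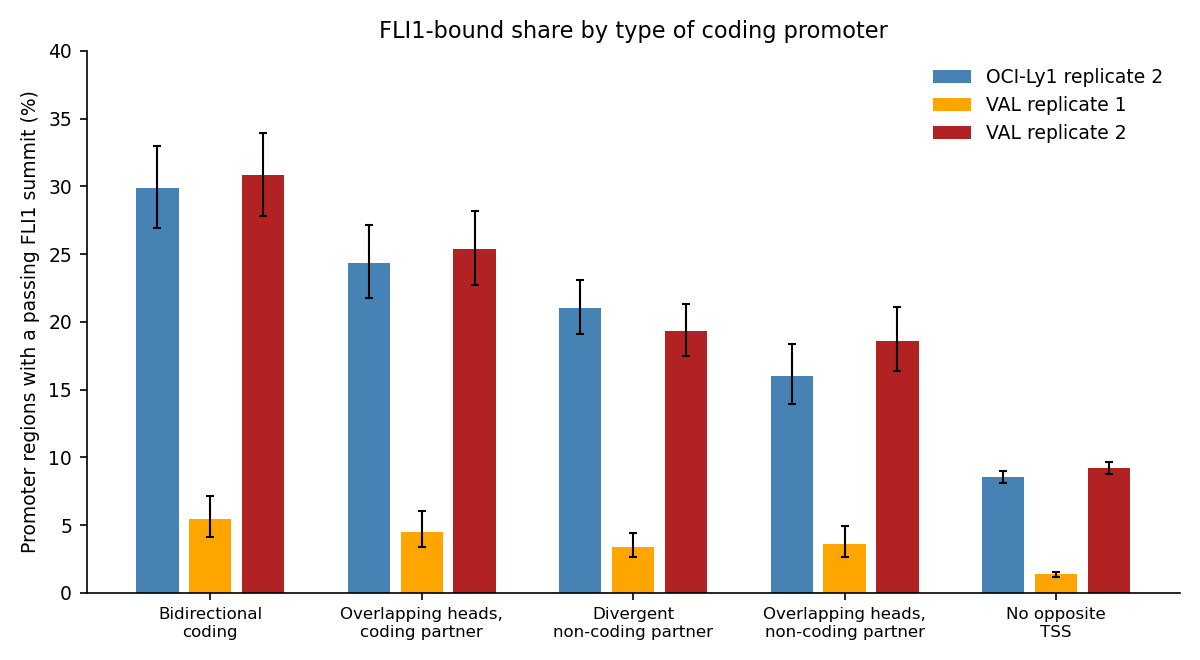
Bars give the percentage of promoter regions with a passing FLI1 summit for the bidirectional coding class and 4 classes of lone promoter, in 3 libraries, and error bars are Wilson 95% intervals. Bidirectional regions were bound in 29.9, 5.45 and 30.8% of cases, and promoters without an opposite TSS in 8.51, 1.36 and 9.19%.

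The classes differ in sequence. An ETS motif was present in 464 of 880 bidirectional regions (52.7%) and in 27.1% of lone windows, with 0.685 and 0.322 motifs per kb. The median CpG ratio, the observed over the expected number of CG dinucleotides, was 0.771 in bidirectional regions and 0.648 in lone windows, and the median GC content was 61.2 and 57.6%. Bound shares are given next within bins of motif number, of CpG ratio and of both.

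Among regions without an ETS motif, the bidirectional share exceeded the lone share in both longer lists, with 9.38 against 3.73% in OCI-Ly1 and 13.5 against 4.53% in VAL-2. In VAL-1 the shares were 0.72 and 0.39% (difference 0.33 points, -0.16 to 1.71). With 1 motif the shares were 43.4 against 22.1% and 39.3 against 23.1%, and in VAL-1 they were 8.46 against 3.16%. With 2 motifs the classes came close, with 48.6 against 47.4% in OCI-Ly1 (difference 1.19 points, -7.52 to 9.95), 7.14 against 9.46% in VAL-1 and 52.1 against 44.6% in VAL-2 (7.58 points, -1.21 to 16.2). With 3 or more motifs, 38 of 52 bidirectional regions (73.1%) and 68.8% of lone windows were bound in OCI-Ly1, 23.1 and 24.0% in VAL-1, and 67.3 and 67.2% in VAL-2. From 2 motifs upward the interval of the difference thus included 0 in each library, which does not show that the shares are equal, since few bidirectional regions have so many motifs. The plot by motif number shows the curves of both classes apart at 0 and 1 motif in the longer lists.

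**Figure D3:**
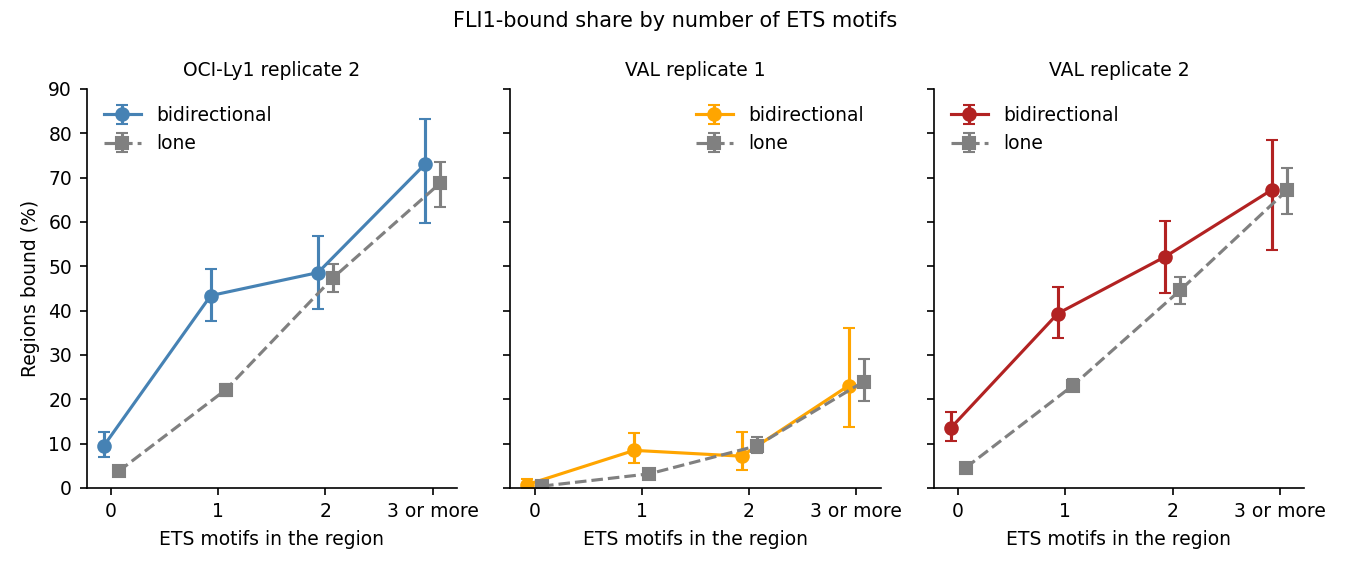
For each library, points give the percentage of regions bound by FLI1 among regions with 0, 1, 2 and 3 or more ETS motifs, in color for bidirectional regions and in grey for lone promoters, with Wilson 95% intervals. In OCI-Ly1 the bidirectional share runs from 9.38 to 73.1% and the lone share from 3.73 to 68.8%.

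At a CpG ratio of at least 0.8, 30.4% of bidirectional and 19.3% of lone regions were bound in OCI-Ly1 (difference 11.1 points, 6.36 to 16.2) and 36.1 and 21.1% in VAL-2 (15.0 points, 9.96 to 20.3). In VAL-1 the shares were 4.58 and 3.13% with a difference of 1.45 points (-0.38 to 4.22). Between 0.4 and 0.8 the shares were 31.1 and 13.7% in OCI-Ly1, 6.34 and 2.39% in VAL-1, and 28.5 and 13.7% in VAL-2. Only 26 of 880 bidirectional regions had a ratio below 0.4, and 1 of them was bound, in VAL-2. Of the 18413 lone windows 5910 had such a ratio, and 0.69, 0.10 and 1.10% of these were bound in OCI-Ly1, VAL-1 and VAL-2. In bins of both measures, regions with a ratio of at least 0.8 and no ETS motif had shares of 10 against 7.81% in OCI-Ly1 (difference 2.19 points, -1.62 to 7.70), 0.59 against 0.64% in VAL-1 (-0.06 points, -0.67 to 2.62) and 19.4 against 10.03% in VAL-2 (9.38 points, 4.01 to 16.1). With at least 1 motif in this CpG range the differences were 11.4 (3.76 to 19.0), 1.10 (-2.40 to 6.22) and 12.4 points (4.70 to 19.9). Between 0.4 and 0.8 they were 5.09 (1.76 to 9.76), 0.37 (-0.33 to 2.70) and 4.59 points (1.26 to 9.27) without a motif, and 17.3 (11.3 to 23.3), 4.72 (1.51 to 8.93) and 13.6 points (7.67 to 19.6) with at least 1. The interval thus included 0 in 1 of these 4 bins in OCI-Ly1, in 3 in VAL-1 and in none in VAL-2.

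Bound and unbound bidirectional regions differed chiefly in ETS motifs among the 8 motifs counted. The ETS motif was present in 79.4% of the 355 regions bound in at least 1 library and in 34.7% of the 525 bound in none, and its longer form CCGGAAGT in 38.3 and 6.29%. Among lone promoters the ETS motif was in 68.6% of those bound in at least 1 library and 19.6% of those bound in none. The longer form was in 27.6 and 2.58% of these. Over all lone windows these motifs were found in 27.1 and 6.40%. The core of the NRF1 site, GCATGCGC, was in 12.4% of bidirectional regions and 5.91% of lone windows, with 11.8% in bound and 12.8% in unbound bidirectional regions. The YY1 motif AAGATGGC was in 11.9 and 7.08%, the CRE TGACGTCA in 6.25 and 3.09%, and the SP box GGGCGG in 93.2 and 70.8% of bidirectional regions and lone windows. CCAAT was in 70.1 and 70.3% and TATAAA in 20.2 and 33.0%. All were counted on both strands, and a match is a run of letters and not a shown site.

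ETS motifs were denser between the TSS than in the gene flanks. Of 724 ETS motifs in the 880 regions, 210 (29.0%) lay between the TSS, which make up 16.6% of the length, or 1.20 motifs per kb between the TSS and 0.583 per kb in the flanks. In regions bound in at least 1 library the densities were 2.36 and 0.925 per kb, and in regions bound in none 0.566 and 0.352 per kb. On the plus strand stood 106 of the 210 motifs and on the minus strand 104. A motif between the TSS was present in 114 of 355 bound regions (32.1%) and 57 of 525 unbound ones (10.9%).

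The median distance from the strongest FLI1 summit to the nearest TSS was 38, 25 and 46 bp in OCI-Ly1, VAL-1 and VAL-2. To the middle of the pair it was 74, 42.8 and 89 bp. A summit outside both TSS is always nearer to a TSS than to the middle, so the order of these medians does not locate FLI1. Within 100 bp of the middle lay 57.8, 66.7 and 53.1% of summits, against 57.1, 67.8 and 54.7% of lone summits within 100 bp of their TSS. In OCI-Ly1 the strongest summit lay between the TSS in 107 of 263 bound regions (40.7%, 34.9 to 46.7%), while this stretch is 12.8% of the length of these regions. The counts were 25 of 48 in VAL-1 (52.1%, 38.3 to 65.5%, with 12.4% of the length) and 101 of 271 in VAL-2 (37.3%, 31.7 to 43.2%, with 13.2% of the length). The other summits were spread over both sides, 82 on the minus-strand gene and 74 on the plus-strand gene in OCI-Ly1, 13 and 10 in VAL-1, and 88 and 82 in VAL-2. Within 100 bp of a TSS lay 74.5, 81.3 and 70.8% of summits in the same order. For pairs with over 200 bp between the TSS, the summit lay between them in 32 of 70, 8 of 13 and 36 of 80 bound regions. Summits of lone promoters, for comparison, lay upstream of the TSS in 54.7, 63.0 and 51.4% of cases.

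**Figure D4:**
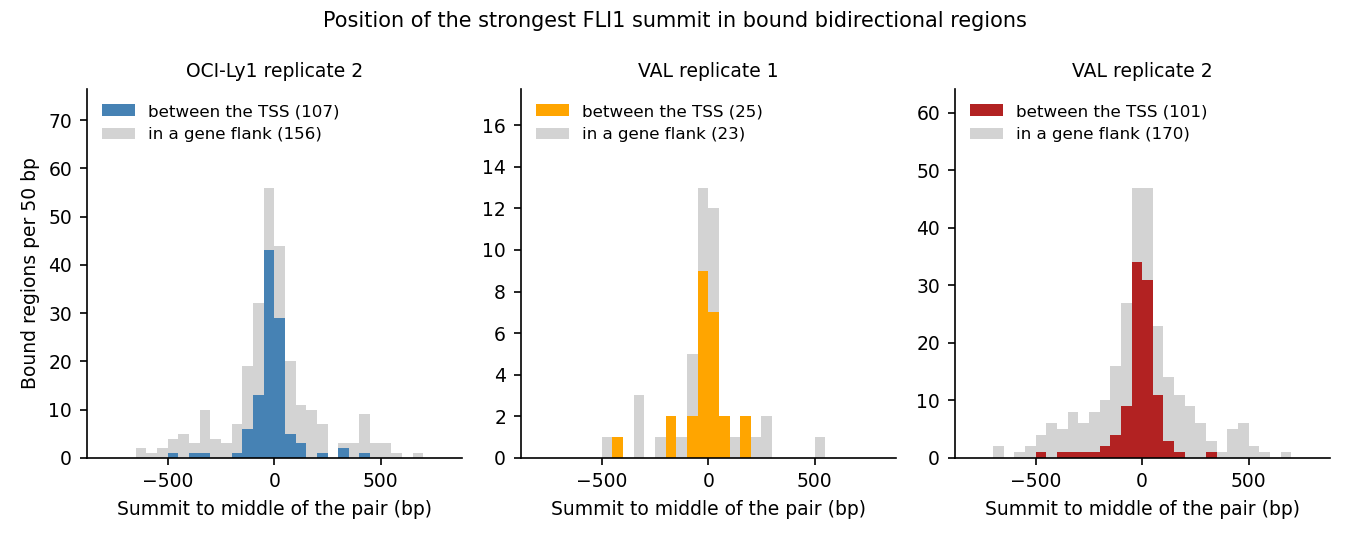
Histograms in bins of 50 bp show the distance in bp from the middle of the pair to the strongest FLI1 summit in each bound bidirectional region, with negative values toward the minus-strand gene, for 3 libraries. Colored parts are summits between the TSS (107, 25 and 101 regions) and grey parts are summits in a gene flank.

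An ETS motif stood within 50 bp of the summit at the majority of bound bidirectional regions. The share was 61.6% in OCI-Ly1 (162 of 263, 55.6 to 67.3%), against 5.89% of windows of the same length 250 bp to either side. In VAL-1 it was 72.9% (35 of 48, 59.0 to 83.4%) against 1.04%, and in VAL-2 57.2% (155 of 271, 51.2 to 62.9%) against 4.43%. The median distance from the summit to the middle of the motif was 13, 15 and 14 bp. Bound lone promoters had shares of 56.3, 70.4 and 51.6%, and the bidirectional share was above these by 5.28 (-1.10 to 11.4), 2.50 (-12.2 to 14.2) and 5.63 points (-0.69 to 11.8), so no difference between the classes was detectable at this number of regions.

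Peaks in bidirectional regions had values near those in lone promoters. The median -log10 q was 7.59 in bidirectional and 6.47 in lone regions in OCI-Ly1, 5.30 and 5.74 in VAL-1, and 6.69 and 6.15 in VAL-2. The median number of reads at the summit was 11 and 10, 19 and 18, and 9 and 9. In VAL-1 a passing peak in a bidirectional region rested on at least 11 reads, and in the other libraries on at least 6.

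The bound share was highest for pairs with the closest TSS and lowest for those farthest apart in each of the 3 libraries. In VAL-2 it was 38.5% for the 143 regions with at most 50 bp between the TSS, 34.2% for 199 regions with 51 to 100 bp, 26.9% for 253 with 101 to 200 bp, 30.9% for 175 with 201 to 400 bp and 23.6% (16.7 to 32.4%) for 110 with 401 to 1000 bp. In OCI-Ly1 the shares were 35.0, 34.7, 29.2, 28.0 and 19.1% (12.8 to 27.4%). In VAL-1 they were 6.99, 5.03, 5.93, 6.29 and 1.82%, the last from 2 bound regions. The intervals of neighboring bins overlap, and those of the first and last bin are apart in OCI-Ly1 (27.6 to 43.1% for the first) and overlap in the VAL libraries. The share of regions with an ETS motif fell over the first 4 bins as well, from 61.5 to 45.1% with 50% in the last. The part of the motif in this order was not tested.

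The same regions were often bound in both cell lines. Of the 263 regions of OCI-Ly1, 182 were bound in VAL-2 (69.2%), which is 67.2% of the 271 of VAL-2. For lone promoters these shares were 65.4 and 62.0%. VAL-1 shared 43 of its 48 regions with OCI-Ly1 (89.6%) and 44 with VAL-2 (91.7%), and 3 were bound in it alone. For lone promoters of VAL-1 these shares were 91.7 and 93.8%. The summits of OCI-Ly1 and VAL-2 in shared regions were a median of 27.5 bp apart, with 75.3% within 50 bp. The median was 16 bp between OCI-Ly1 and VAL-1, over 43 regions, and 19 bp between the VAL replicates, over 44 regions.

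Regions called in 1 of the longer lists had lower values than those called in both. The 81 regions of OCI-Ly1 not called in VAL-2 had a median -log10 q of 4.83, against 9.40 for the shared ones, and 23 of them had a value from 2 to 3 in VAL-2. The 89 of VAL-2 not called in OCI-Ly1 had a median of 4.42, against 8.80, and 30 had a value from 2 to 3 in OCI-Ly1. With 1 usable library of OCI-Ly1, a difference between the lines and a difference between libraries cannot be told apart. NCBP2/NCBP2AS2, where NCBP2 is a subunit of the nuclear cap-binding complex, had 23.5 in OCI-Ly1 and 2.84 in VAL-2, just under the threshold. WDR4/NDUFV3 (WDR4 acts in tRNA methylation, NDUFV3 in respiratory complex I) had 18.0, 0.29 and 0.43 in OCI-Ly1, VAL-1 and VAL-2, and NIFK/TSN had 14.6, 0.18 and 0.95. In the other direction, KCTD10/UBE3B (UBE3B is a ubiquitin ligase) had 1.61, 3.04 and 14.3, and ATP5MK/PDCD11 (a subunit of the ATP synthase and a factor of ribosomal RNA processing) had 2.62, 3.72 and 6.59. These were the only 2 regions bound in both VAL libraries and not in OCI-Ly1. THAP4/ATG4B, where ATG4B is a protease of autophagy, had no listed peak in OCI-Ly1, 0.50 in VAL-1 and 17.5 in VAL-2, and was called in VAL-2 alone.

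**Figure D5:**
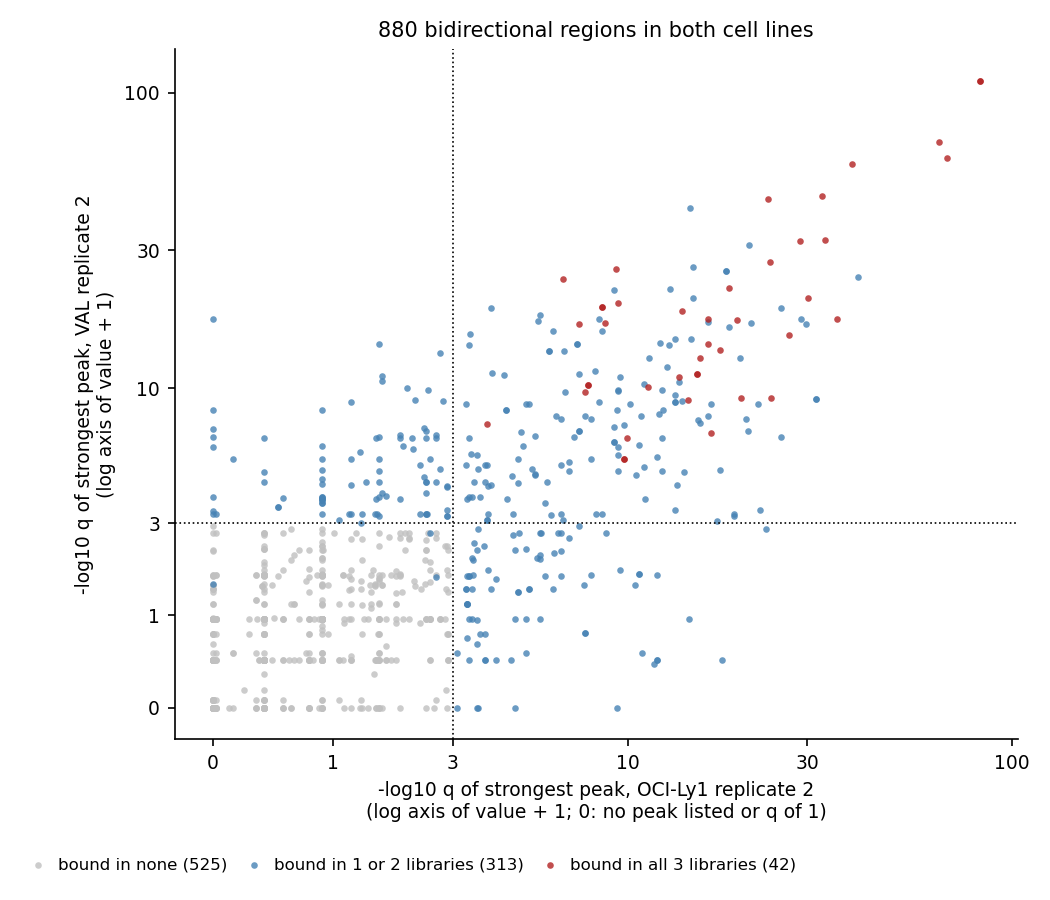
Each point is 1 of 880 bidirectional regions, placed by the -log10 q of its strongest peak in OCI-Ly1 and VAL-2 on log axes of the value + 1 (0 means no listed peak or a q of 1), with dotted lines at the threshold of 3. Red points are the 42 regions bound in all 3 libraries, blue points the 313 bound in 1 or 2 and grey points the 525 bound in none.

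Members in 12 groups of genes are described by counts, beside the 40.3% of all bidirectional regions bound in at least 1 library. Genes were assigned by the start of their symbols, or in some groups by the ending or the full symbol, and none of these counts was tested. Where 2 values are given for a pair they are those of OCI-Ly1 and VAL-2, and VAL-1 listed no peak there. Cytosolic ribosomal proteins, which build the ribosome of the cytosol, stood highest of the 12 groups with 12 of 14 regions bound (85.7%), against 43 of 88 lone promoters of the group (48.9%). They were bound in 8 regions in OCI-Ly1, 10 in VAL-2 and 0 in VAL-1. The lone share was the higher one for aminoacyl-tRNA synthetases (33.3 against 38.7%) and replication-dependent histones (33.3 against 34.8%). In every other group the bidirectional share was higher, by little for proteasome genes (42.9 against 39.5%). TRIM66/RPL27A had a -log10 q of 16.5 in OCI-Ly1 and 7.92 in VAL-2, and RPL12/LRSAM1 had 12.8 and 11.9. RPL35/ARPC5L had 12.4 and 4.90, and RPS16/SUPT5H, which pairs a ribosomal protein with an elongation factor of RNA polymerase II, had 8.10, 2.40 and 11.5 in OCI-Ly1, VAL-1 and VAL-2. The 2 unbound regions were RPL9/LIAS and TUBD1/RPS6KB1, where RPS6KB1 is a kinase and no ribosomal protein. BTK, the kinase of B cell receptor signaling, lies opposite RPL36A at 28 bp, and this region was bound in VAL-2 alone with 3.76, against 0.87 in OCI-Ly1. BTK/RPL36A and its read-through form are 2 of the 14 regions.

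Mitochondrial ribosomal proteins were bound in 9 of 18 regions, 7 in OCI-Ly1, 1 in VAL-1 and 6 in VAL-2. MRPL10/LRRC46 had 28.9, 2.17 and 17.5 in OCI-Ly1, VAL-1 and VAL-2, and MRPL21/IGHMBP2 had 9.40, 3.03 and 19.8 and was bound in all 3. Respiratory chain genes were bound in 9 of 27 regions (33.3%), and 2 of the 9, CEBPZ/NDUFAF7 and TEPSIN/NDUFAF8, hold assembly factors in place of subunits. TSSK6/NDUFA13 had 18.4, 2.83 and 25.5, and TIMM8B/SDHD, a mitochondrial import chaperone and a subunit of succinate dehydrogenase, had 9.73, 3.36 and 5.46 and was bound in all 3 libraries. LRRC41/UQCRH, with a subunit of respiratory complex III, had 12.4, 2.71 and 9.85.

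The transcription machinery (RNA polymerase subunits, general factors and Mediator) was bound in 13 of 25 regions, 8 in OCI-Ly1, 2 in VAL-1 and 12 in VAL-2. HPS5/GTF2H1, with a subunit of the general factor TFIIH, had 9.28, 9.003 and 25.9, and MED31/C17orf100, with a Mediator subunit, had 16.8, 10.3 and 6.89. ZBTB4/POLR2A, which holds the start of the largest subunit of RNA polymerase II, had 5.80, 1.60 and 3.65. RNA helicases and splicing factors were bound in 10 of 16 regions, among them COG4/SF3B3 with 17.7 and 4.97 in OCI-Ly1 and VAL-2. Chaperones were bound in 9 of 15, among them PSPH/CCT6A, with a subunit of the cytosolic chaperonin, at 19.3, 1.60 and 3.29. Proteasome genes were bound in 3 of 7, where 1 of the 3 is PSME3IP1, which is named for an interaction and is no subunit. Of 3 regions with an aminoacyl-tRNA synthetase, RARS2/ORC3 was bound, with 15.7 and 7.47.

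DNA repair and replication genes were bound in 10 of 28 regions (35.7%), close to all bidirectional regions, 9 in OCI-Ly1, 1 in VAL-1 and 8 in VAL-2. NPAT/ATM, which pairs the activator of histone genes with the kinase of the DNA damage response, had 9.54 in OCI-Ly1 and 11.0 in VAL-2. TMEM258/FEN1, with the flap endonuclease of DNA replication, had 7.20 and 14.3. TRMT6/MCM8, with a helicase of homologous recombination, had 7.73, 3.82 and 10.3 and was bound in all 3 libraries. POLE/PXMP2, with the catalytic subunit of DNA polymerase epsilon, had 10.8, 0.38 and 6.19. MCM3AP/YBEY had the highest value of the group, 20.1, 2.60 and 12.8, and MCM3AP acts in mRNA export and is no helicase subunit. BRCA1/NBR1 had no listed peak in OCI-Ly1 and 0.062 in VAL-2.

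Zinc finger genes were bound in 12 of 30 regions (40%), with ZNF668/ZNF646 bound in all 3 libraries at 14.6, 9.05 and 9.04. Replication-dependent histone pairs, which are mostly an H2A gene opposite an H2B gene, were bound in 4 of 12 regions (33.3%), with low values. H2BC13/H2AC13 had 3.38, 0.50 and 3.87, and H2BC4/H2AC6 had 1.42, 0 and 4.42. B cell and immune genes had 9 regions, of which 4 were bound, 1 in OCI-Ly1 and 4 in VAL-2. NFKBID, an inhibitor of NF-κB, lies opposite HCST, and the region had 2.07 in OCI-Ly1 and 10.01 in VAL-2. Both BTK regions are among the 4, and the fourth is PIGN/RELCH, whose RELCH is no REL factor.

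Of 8 textbook pairs, 4 met the rule. NPAT/ATM and TMEM258/FEN1 are given above. PPAT/PAICS, whose genes encode enzymes of purine synthesis, had 1.66 in OCI-Ly1 and 1.71 in VAL-2 and was not bound. SARS2/MRPS12 had 0.34, 0 and 0.73 and was not bound. HSPD1/HSPE1, TAP1/PSMB9 and TRMT2A/RANBP1 are among those that are not members under this rule and annotation.

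Some regions stood at the edge of the call. Just inside the threshold were CASP9/DNAJC16 in OCI-Ly1 (3.10) and MRPL21/IGHMBP2 in VAL-1 (3.03). Just outside were IFT25/LRRC42 in OCI-Ly1 (2.89), C11orf68/DRAP1 in VAL-1 (2.88) and DNAI7/ETFRF1 in VAL-2 (2.91). Values from 2 to 3 were found in 87 regions of OCI-Ly1, 28 of VAL-1 and 78 of VAL-2, so a lower threshold would add many members. More than 1 passing summit was found only in OCI-Ly1, at PDCD10/SERPINI1 and INTS13/FGFR1OP2.

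Whether both genes of a pair respond to FLI1 cannot be read from peaks. In a list of direct FLI1 targets chosen on libraries of these same lines, and so no independent evidence, 62 pairs have exactly 1 gene and 1 pair, RNF41/NABP2, has both. Of the 62, 26 have their gene on the positively regulated side, with 12 regions bound in at least 1 library, and 36 on the negatively regulated side, with 18 bound. These 30 of 62 stand beside the 40.3% of all bidirectional regions bound in at least 1 library, and the counts were not tested. The study put a gene on its list only with a FLI1 ChIP-Seq peak in the promoter, within a wider window than used here. The bound count among the 62 is therefore partly built in and is no result about these pairs. RNF41/NABP2 was bound in none of the 3 libraries.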

How the data were processed

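FLI1 ChIP-Seq peak lists of OCI-Ly1 and VAL were used, 1 list per library, with 4 FLI1 libraries and 4 input DNA samples in the series. Per the methods, the authors mapped reads to GRCh37 with bowtie2 and kept unique, non-duplicate reads with a mapping quality of at least 10, while the submitters' processing notes name BWA, CASAVA 1.4 and hg19, and which of these made the lists is not settled by the sources used here. The deposited lists have 10 columns in the layout of MACS2. The methods name HOMER as the peak caller, with an FDR of 0.001, whereas the layout is not HOMER's, and this conflict is not settled by the sources used here. The control and other settings behind the lists are not given in the sources used here. The fold enrichment is a ratio made by the authors' caller, the summit pileup over the local background. The -log10 p and -log10 q are the authors' caller values for each summit, and the distance from peak start to summit is deposited in bp. Values were used to call and rank peaks within a library, and are set side by side between libraries as descriptions and not as amounts.

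Members and lists were chosen with earlier results of these data known. A region was bound with a summit at a -log10 q of at least 3, an FDR of 0.001. Shares have Wilson 95% intervals and differences Newcombe intervals, which cover counting error only. No test was run over regions, and the exact sign-flip permutation test used 3 libraries. Reads at a summit were inferred from fold and p with the formula of MACS2. All 582 strongest passing peaks, 1 per bound region and library, had a solution. The tolerance was 0.0005 in -log10 p and was wider for strong peaks. Read totals were not used, so library depth is unknown. CpG bins were split at 0.4 and 0.8. Named pairs were the 10 with the highest lowest -log10 q over 3 libraries, the 3 highest per library, 8 textbook pairs, the pairs nearest the threshold, the 3 strongest in each line alone, pairs with more than 1 summit, and up to 4 per gene group with the highest value. Pairs outside this rule (RPL9/LIAS, TUBD1/RPS6KB1, TIMM8B/SDHD, TEPSIN/NDUFAF8, ZBTB4/POLR2A, TRMT6/MCM8, POLE/PXMP2 and BRCA1/NBR1) were chosen after their values were seen. Some pairs that the rule names are not reported here. Pairs that share a stretch also share its peaks. The list of direct targets is the study's, and only its membership and direction were used. Alternatives covered the threshold, windows, distance, motif, region sets and libraries. Peak lists hold no expression, so the lines were not checked against markers. Scripts were tested on simulated data and ran in python 3.11.15 with numpy 2.4.6, pandas 2.3.3, scipy 1.17.1 and matplotlib 3.10.9.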

Additional observations from a re-analysis of the deposited data

How the results depend on the processing

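Of 131 recomputed values under 21 alternatives, 61 of 102 values of 1 library stayed within the 95% interval of the value reported (for the motif excess, the interval of the summit share alone), 20 of 26 counts of regions stayed within a factor of 1.5, and the 3 means over libraries stayed within 1 SD of the mean reported. The other 47 moved and 0 changed sign. All 42 recomputed differences between bidirectional and lone promoters in 1 library were above 0, and the 95% interval of 41 was above 0. The exception was a CpG ratio of at least 0.8 in VAL-1 (1.45 points, -0.38 to 4.22). Values are given in the order OCI-Ly1 (its replicate 2), VAL-1 and VAL-2 (the replicates of VAL). With a -log10 q of at least 5, bound shares were 21.1, 3.07 and 20.7%, differences from lone promoters 14.1, 2.004 and 13.7 points, the ETS motif excess 63.7 points in OCI-Ly1 and 60.7 in VAL-2, summits between the TSS 66.7% in VAL-1, and 25 regions were bound in all 3. At 2, shares were 39.8, 8.64 and 39.7%, differences 24.6, 5.96 and 22.7 points, the motif excess 48 and 45.4 points, and 70 regions were bound in all 3. With a fold of at least 6, shares were 22.6, 2.16 and 22.2%, differences 15.0, 1.49 and 14.7 points, and 19 regions were bound in all 3. With the 973 strongest peaks of each list, OCI-Ly1 and VAL-2 had shares of 10 and 7.95% and differences of 7.12 and 5.37 points, with 22 regions bound in all 3 and 127 in at least 1. A flank of 250 bp gave 26.0 and 26.9% in these libraries. Within regions with an ETS motif the difference in VAL-2 was 16.2 points. Within a CpG ratio of at least 0.8 the differences were 11.1, 1.45 and 15.0 points. The motif excess was 28.1, 54.2 and 23.4 points for CCGGAAGT, 26.2, 24.0 and 23.4 for GGAA, and 62.9 and 61.6 (OCI-Ly1 and VAL-2) within 100 bp. Leaving out 1 library, regions bound in all others numbered 43 to 182 (182 without VAL-1), those bound in at least 1 numbered 268 to 352, and the mean difference was 11.3 to 19.2 points. No paired analysis was possible because OCI-Ly1 has 1 usable library and no test compares the lines. Shares scale with the number of passing peaks, so VAL-1 limits what could be called in all 3.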
